A study of Homo sapiens with 6 samples.

Results

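The 10 genes described here belong to the mitotic kinase network or, as PLK2 and PLK3, are related to PLK1 in sequence. All were followed in cultured human mammary epithelial cells after an siRNA against Ecd. They are the Aurora kinase genes AURKA and AURKB, TPX2, whose protein activates Aurora A, the Polo-like kinase genes PLK1, PLK2, PLK3 and PLK4, and the kinase genes NEK2, MELK and PBK. They were taken by name, as every array probe set whose only gene symbol in the platform annotation is one of these 10, which gave 18 of 41091 single-symbol probe sets. The cells were 76N, a line described in the labels as normal mammary epithelial cells, grown in DFCI-1 medium. Of the cultures, 3 received the Ecd siRNA and 3 a control siRNA, with no genetic change named in either group, and the titles call the cultures of a group biological replicates. Total RNA from each culture was read on 1 Affymetrix array. All values come from this single cell line, and no source used here gives the siRNA sequences, their dose or the time to harvest.

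Entry into and passage through mitosis is driven by protein kinases whose transcripts, in dividing cells, accumulate in G2 and are removed or diluted after division. Aurora A with TPX2 builds the spindle, Aurora B corrects the attachment of chromosomes and supports cytokinesis, PLK1 acts from mitotic entry to cytokinesis, PLK4 starts the duplication of centrioles and NEK2 separates centrosomes. PLK2 and PLK3 are related in sequence to PLK1 but are known as genes induced by serum, DNA damage and other stresses, and the design allows these branches of the family to be set side by side.

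The siRNA target was measured first. ECD had signals of 588.9, 599.8 and 542.5 with Ecd siRNA, against 1076.6, 1011.4 and 1007.2 with control siRNA, which leaves 55.9% of the control mean. Its log2 change was -0.82 (SE 0.10, limma adjusted p = 0.000172), and the two-sided exact permutation test gave p = 0.1, the smallest that 3 against 3 arrays allow. Array medians lay between 128.7 and 147.6, and correlations across all probe sets were 0.968 to 0.972 within groups and 0.957 to 0.966 between them. The ratio of 3′ to 5′ signal for the ACTB control probe sets was 1.065 to 1.158 with Ecd siRNA and 1.066 to 1.108 with control siRNA. The basal keratin genes KRT5 and KRT14, which mark these cells, had mean signals of 16024 and 22350 with Ecd siRNA and of 16435 and 21386 with control siRNA. Of the 15 fibroblast markers, 9 were tested. Among them 6 rose, beside 10.1% of all genes tested, and 0 fell (0 also at an unadjusted p under 0.05), beside 11.0%. The summed signal of those 9 was 20465 to 22485 with Ecd siRNA and 11062 to 11546 with control siRNA, while COL3A1, LUM, PDGFRA, PDGFRB, POSTN and COL6A3 lay under the filter. The part of this rise in the results for the kinase genes was not tested. The leukocyte gene PTPRC had mean signals of 30.7 with Ecd siRNA and 27.1 with control siRNA, both under the filter. Other leukocyte and endothelial markers passed the filter. PECAM1 had mean signals of 409.4 with Ecd siRNA and 476.4 with control siRNA. CLDN5 had 144.5 with Ecd siRNA and 89.8 with control siRNA, and LYZ had 115.8 and 94.7.

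Of the 10 genes, 8 were lower after Ecd siRNA and the other two, PLK2 and PLK3, were not detectably changed. The 8 that fell retained between 11.0% and 28.2% of their control signal. The brightest probe set of each gene was used, and a gene is said to have fallen or risen only at an adjusted p under 0.05 in a limma fit of all 14603 genes tested. In that fit 11.0% of all genes were lower and 10.1% were higher. No member was higher, also not at an unadjusted p under 0.05. The median log2 change of the 10 was -2.08, beside 0.008 for all genes tested. In the same 8 genes every Ecd siRNA array lay below every control array, which was true of 18.3% of all genes tested, and the opposite of 18.1%. The control array with the lowest signal exceeded the brightest Ecd siRNA array by 2.90-fold to 6.31-fold in these 8. In bulk RNA, fewer cells in G2 or mitosis and less RNA in each such cell cannot be told apart.

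**Figure D1:**
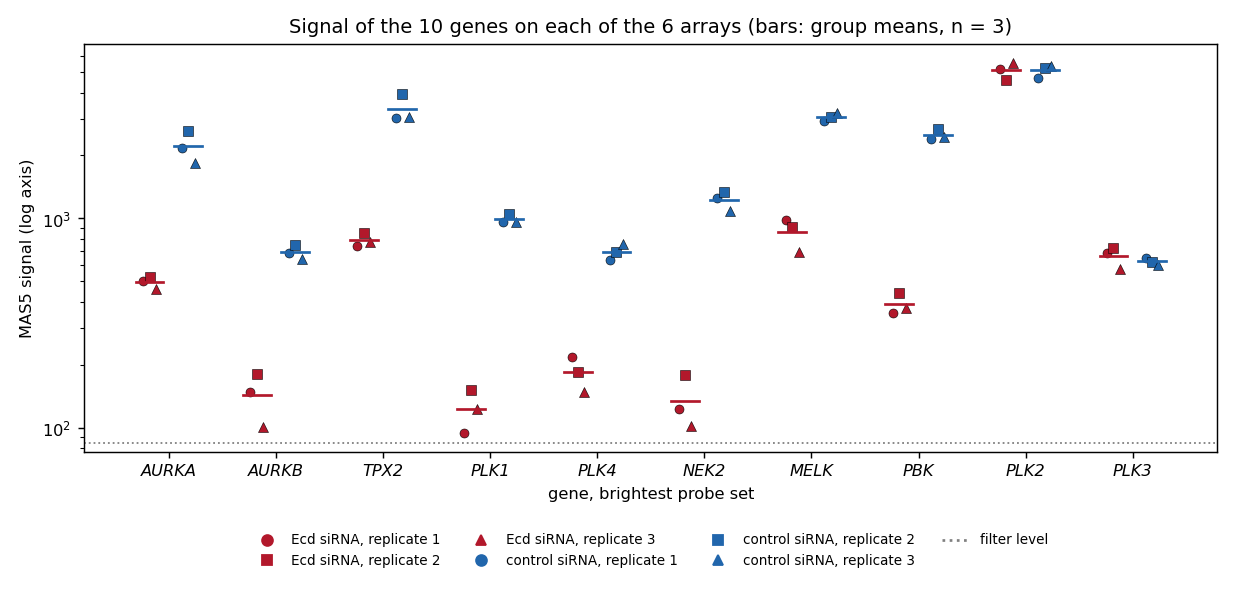
Signal of the brightest probe set of each gene (MAS5 signal, log axis) on the 3 Ecd siRNA arrays (red) and the 3 control siRNA arrays (blue), with group means as bars and the filter level of 84.6 as a dotted line. In AURKA, AURKB, TPX2, PLK1, PLK4, NEK2, MELK and PBK the red points lie below all blue ones, and in PLK2 and PLK3 they overlap.

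Among the Aurora genes, AURKA encodes the kinase of centrosomes and spindle poles. It had signals of 501.2, 525.0 and 459.6 with Ecd siRNA, against 2175.8, 2614.3 and 1850.8 with control siRNA. The groups were far apart, and the spread was wider among the control arrays. The mean was 495.3 ± 33.1 with Ecd siRNA and 2213.6 ± 383.2 with control siRNA (SD, n = 3 each), a log2 change of -2.11 (SE 0.13, limma adjusted p = 1.6e-06).

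TPX2, which binds Aurora A, holds it on spindle microtubules and keeps it active, changed by nearly the same amount as its partner. Its signals were 741.1, 848.4 and 774.5 with Ecd siRNA and 3010.1, 3918.5 and 3053.4 with control siRNA. Replicate 2 was the highest array in both groups. The log2 change was -2.05 (SE 0.11, adjusted p = 8.87e-07), and the change of AURKA minus that of TPX2 was -0.065 with an SE of 0.09.

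AURKB, the kinase of the chromosomal passenger complex, had signals of 148.1, 180.7 and 101.0 with Ecd siRNA, against 686.6, 742.7 and 639.1 with control siRNA. It thus retained 20.8% of the control mean, a log2 change of -2.18 (SE 0.19, adjusted p = 2.36e-05). Its change differed from that of AURKA by -0.064 (SE 0.18), less than the spread between arrays. AURKC, the remaining Aurora gene, was not among the tested genes.

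By brightest probe set, the largest fall after that of NEK2 was that of PLK1, whose kinase phosphorylates targets at centrosomes, kinetochores and the midzone. PLK1 had signals of 94.0, 151.9 and 122.2 with Ecd siRNA and of 958.4, 1051.2 and 959.0 with control siRNA. The control arrays were close together and the Ecd siRNA arrays came near the filter level of 84.6. The mean was 122.7 ± 29.0 with Ecd siRNA and 989.5 ± 53.4 with control siRNA (SD, n = 3 each), 8.06-fold lower. The log2 change was -2.88 (SE 0.17, adjusted p = 1.32e-06), which ranks 13 among the falls of all genes tested.

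PLK4 encodes the kinase that sets the number of centrioles. Its signals were 217.6, 185.3 and 148.2 with Ecd siRNA and 630.8, 690.6 and 751.4 with control siRNA. The groups did not overlap, and 26.6% of the control mean remained. The log2 change was -1.84 (SE 0.16, adjusted p = 2.04e-05), beside -2.88 for PLK1.

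NEK2, a kinase gene of centrosome separation, showed the largest fall of the 10 by its brightest probe set and ranks 10 among all genes tested. It had signals of 122.1, 178.8 and 102.0 with Ecd siRNA, against 1249.7, 1333.0 and 1084.6 with control siRNA. The Ecd siRNA arrays were 9.10-fold lower on average, a log2 change of -3.07 (SE 0.18, adjusted p = 1.64e-06). NEK2 belongs to a larger family, and the other NEK genes were looked at after their values were seen. Of 7 tested, 1 fell (NEK4, log2 change -0.73, adjusted p = 0.000738), a count near the 11.0% of all genes tested that fell. The number that rose was 0 (0 also at an unadjusted p under 0.05), beside 10.1% of all genes tested. The 6 not past the threshold, which include NEK6, NEK7 and NEK9 of the mitotic NEK cascade, lay between -0.21 and 0.14.

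PBK and MELK are less well understood kinases that are abundant in proliferating cells, PBK being a MAPKK-like kinase and MELK a relative of AMPK. PBK had signals of 354.1, 440.6 and 373.5 with Ecd siRNA and of 2403.2, 2665.9 and 2460.0 with control siRNA. It had the smallest adjusted p of the 10 (1.34e-07), at a log2 change of -2.64 (SE 0.10).

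MELK had signals of 982.0, 909.7 and 694.9 with Ecd siRNA, against 2917.8, 3071.8 and 3195.0 with control siRNA. It kept the largest share of the 8, with 28.2% of the control mean left and a log2 change of -1.82 (SE 0.12, adjusted p = 3.25e-06).

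PLK2 and PLK3 behaved otherwise. PLK2, also known as a serum-inducible kinase, had signals of 5185.0, 4580.9 and 5565.1 with Ecd siRNA and of 4699.0, 5264.6 and 5375.5 with control siRNA. The groups overlapped, with the lowest and the highest of the 6 signals both in the Ecd siRNA group. The mean was 5110.3 ± 496.3 with Ecd siRNA and 5113 ± 362.8 with control siRNA (SD, n = 3 each). The log2 change was -0.003, with a 95% interval of -0.19 to 0.19 (limma adjusted p = 0.988).

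PLK3, a kinase gene of stress and DNA damage responses, had signals of 684.2, 721.4 and 571.2 with Ecd siRNA, against 648.4, 619.7 and 601.2 with control siRNA. These groups overlapped too, the Ecd siRNA group holding both extremes. The log2 change was 0.073, with a 95% interval of -0.18 to 0.33 (adjusted p = 0.73). The intervals of PLK2 and PLK3 cover changes of either sign, so the test does not show that these genes were unaltered, but falls of the size seen in PLK1 and PLK4 lie far outside them. The fifth Polo-like gene, PLK5, named after its values were seen, had a log2 change of -0.02 with an SE of 0.61 (adjusted p = 0.987), too wide to place it.

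The difference between the branches was examined within each array. PLK1 minus PLK2, on the scale of log2(signal + 16), was -5.56, -4.77 and -5.34 with Ecd siRNA and -2.27, -2.31 and -2.47 with control siRNA. Since each value is a difference between probe sets, only its shift between the groups is read, and that was -2.88 (SE 0.24). For PLK1 minus PLK3 the shift was -2.95 (SE 0.20). PLK4 shifted by -1.83 (SE 0.20) against PLK2 and by -1.91 (SE 0.14) against PLK3. In all 4 pairs the groups did not overlap and the two-sided exact permutation test gave p = 0.1, the smallest this design can reach, which also stays 0.1 after Benjamini-Hochberg adjustment over the 4 pairs. This floor belongs to the permutation test, and the shifts themselves were large beside their SEs.

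**Figure D2:**
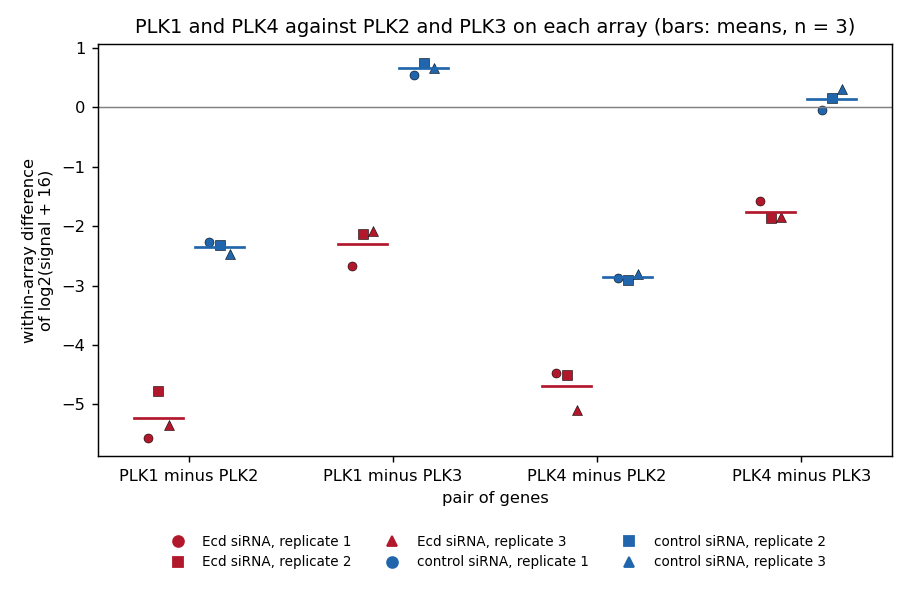
Within-array difference of log2(signal + 16) between PLK1 or PLK4 and PLK2 or PLK3, on the 3 Ecd siRNA arrays (red) and the 3 control siRNA arrays (blue), with means as bars. For each of the 4 pairs the red points lie below the blue ones, by -2.88, -2.95, -1.83 and -1.91 on average.

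Cell cycle promoters are known for a pair of short motifs, which were looked for at the starts of these genes. RefSeq promoter windows (GRCh38.p14, 250 bases before to 50 from the annotated start) were read for 7 of the 10 genes: AURKB, MELK, NEK2, PLK1, PLK2, PLK3 and PLK4. No window of AURKA, PBK or TPX2, which also fell, was searched. The windows read were searched on both strands for the cell cycle genes homology region (CHR, letters TTTGAA) and for the CCAAT box (letters CCAAT). No match overlapped another. The windows of the mitotic kinase genes PLK1 and NEK2, which fell most, and of PLK2 and PLK3, which did not change detectably, are shown 5′ to 3′ on the gene's strand, with both motifs in capitals.
PLK1 (chr16:23678639-23678938, plus strand): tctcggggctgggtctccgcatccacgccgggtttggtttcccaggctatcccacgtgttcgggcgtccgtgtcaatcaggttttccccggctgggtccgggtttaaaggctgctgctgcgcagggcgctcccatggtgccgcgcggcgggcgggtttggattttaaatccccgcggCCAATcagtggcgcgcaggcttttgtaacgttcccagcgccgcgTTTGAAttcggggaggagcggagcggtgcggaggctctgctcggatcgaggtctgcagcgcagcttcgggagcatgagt
NEK2 (chr1:211675572-211675871, minus strand): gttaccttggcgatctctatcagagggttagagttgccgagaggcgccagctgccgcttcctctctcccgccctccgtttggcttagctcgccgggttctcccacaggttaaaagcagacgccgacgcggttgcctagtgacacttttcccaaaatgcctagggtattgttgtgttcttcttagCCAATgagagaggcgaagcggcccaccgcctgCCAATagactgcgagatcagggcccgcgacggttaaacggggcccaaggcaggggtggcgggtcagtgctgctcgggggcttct
PLK2 (chr5:58460037-58460336, minus strand): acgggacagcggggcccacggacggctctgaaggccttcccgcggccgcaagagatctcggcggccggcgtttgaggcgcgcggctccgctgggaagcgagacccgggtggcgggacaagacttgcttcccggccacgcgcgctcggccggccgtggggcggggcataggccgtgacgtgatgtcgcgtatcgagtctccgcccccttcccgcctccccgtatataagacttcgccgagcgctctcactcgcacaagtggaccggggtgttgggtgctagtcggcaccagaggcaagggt
PLK3 (chr1:44800127-44800426, plus strand): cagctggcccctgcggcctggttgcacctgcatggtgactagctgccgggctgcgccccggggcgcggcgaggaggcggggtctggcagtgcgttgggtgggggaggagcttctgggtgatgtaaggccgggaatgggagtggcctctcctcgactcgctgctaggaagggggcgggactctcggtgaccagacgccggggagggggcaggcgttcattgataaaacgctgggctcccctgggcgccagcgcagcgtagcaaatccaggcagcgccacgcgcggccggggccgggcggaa

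The PLK1 window holds a CCAAT box at -73 to -69 and a CHR at -29 to -24, counting the annotated start as 0. The NEK2 window holds CCAAT boxes at -66 to -62 and at -34 to -30 and no CHR. Neither motif is in the windows of PLK2 and PLK3. The same is true of MELK, which fell. Both AURKB windows, which overlap, hold the same CCAAT box on the opposite strand. Of the 3 windows of PLK4, 1 holds a CHR on the opposite strand, 1 a CCAAT box on the opposite strand and 1 neither. Of all 35116 windows, 15.2% hold a CHR, 34.6% a CCAAT box and 5.9% both, and 10.8% hold 2 or more CCAAT boxes. These are matches of letters, and binding at them was not measured here.

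Some of these genes had other probe sets, and not all of those were in step. Of the 18 probe sets, 16 lay above the filter. In a limma fit of 27009 probe sets 12 of these were lower and 0 higher (0 also at an unadjusted p under 0.05). Of all probe sets in that fit 8.62% were lower and 8.30% higher. The 12 include the brightest probe set of each of the 8 genes that fell, already used above. AURKA had a second bright probe set with a like fall, at 392.6, 443.8 and 372.1 with Ecd siRNA and 1927.7, 1967.3 and 1647.4 with control siRNA (log2 change -2.15). Its dimmest probe set read 92.3, 92.6 and 86.6 with Ecd siRNA and 259.4, 143.5 and 82.7 with control siRNA. There the groups overlapped and the log2 change of -0.62 (SE 0.35) did not pass (adjusted p = 0.291). It is the only probe set of AURKA without _s in its name, a mark for those that can bind transcripts of more than 1 gene. With such probe sets set aside AURKA thus loses its call. The only probe set of TPX2, the brightest of PLK4 and the second of NEK2 are also of the _s kind, so TPX2 has no reading without them. Several genes of the lists below, such as BIRC5 and CCNB1, were read by _s probe sets too.

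The second probe set of NEK2 gave 141.2, 91.4 and 94.9 with Ecd siRNA and 610.0, 569.1 and 481.6 with control siRNA, a log2 change of -2.20 (adjusted p = 5.32e-05). The fall of NEK2 thus passes in both probe sets, while its size depends on the probe set. The 3 probe sets of PLK4 had log2 changes of -1.84 in the brightest, -2.10 in the next and -1.35 in the dimmest. In the middle one the Ecd siRNA signals of 69.8, 69.1 and 70.5 were all under the filter level, against 326.1, 343.7 and 385.5 with control siRNA. The dimmest had 93.2, 90.2 and 62.0 with Ecd siRNA, a mean of 81.8, and 219.6, 236.9 and 236.7 with control siRNA. Both thus passed the filter through the control arrays and add no separate support to the fall seen in the brightest probe set. PLK3 had 1 more probe set above the filter, at a log2 change of 0.36 (95% interval -0.21 to 0.93, adjusted p = 0.407). Of the 2 probe sets under the filter, that of AURKB had mean signals of 11.8 with Ecd siRNA and 19.6 with control siRNA. That of PLK3 had 67.1 with Ecd siRNA and 54.7 with control siRNA. The fall of AURKB rests on its bright probe set, and averaging in the dim one brings it to -1.26 (adjusted p = 0.00274).

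**Figure D3:**
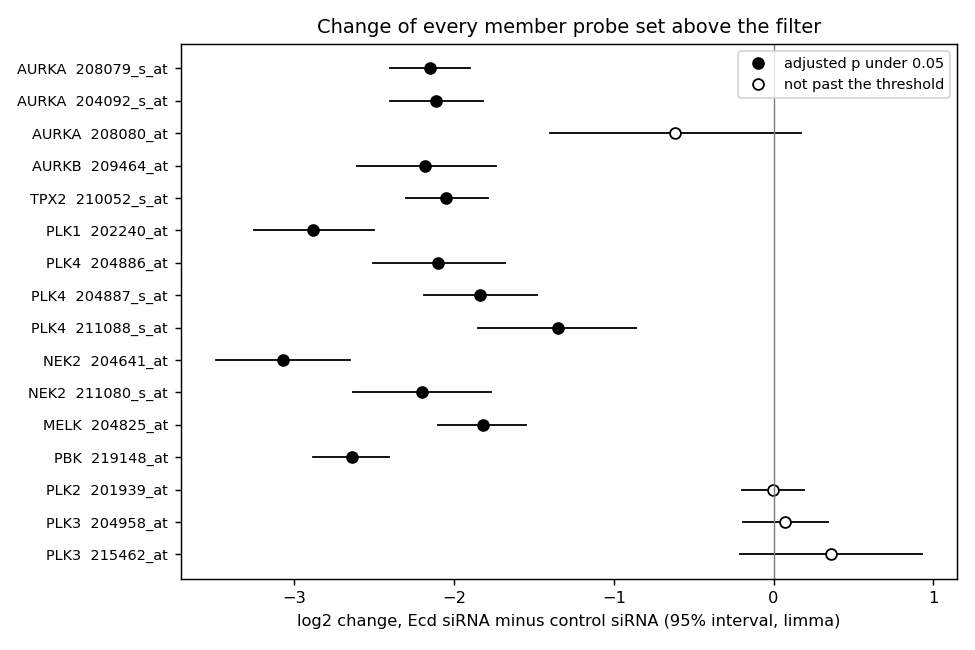
Log2 change (Ecd siRNA minus control siRNA, with its 95% interval from limma) of the 16 probe sets above the filter, by gene. Filled points passed an adjusted p of 0.05. The 12 filled points lie between -3.07 and -1.35, and the open ones belong to the dimmest probe set of AURKA and to the probe sets of PLK2 and PLK3.

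The 8 falls were not of equal size. By brightest probe set and a pseudocount of 16 they ran, from largest to smallest, NEK2, PLK1, PBK, AURKB, AURKA, TPX2, PLK4 and MELK. The order moved with these choices. With the mean of probe sets PLK1 (-2.88) stood before NEK2 (-2.64) and AURKB (-1.26) was last, and with a pseudocount of 64 PLK4 (-1.61) came after MELK (-1.77). Neighbours were compared by their difference within each array. The genes were ordered by these same changes, so the sign of each difference was set by the ordering. The differences and their overlap are therefore given as a description. NEK2 and PLK1 differed by -0.19 (SE 0.18), no more than their spread. PLK1 and PBK differed by -0.23 (SE 0.10) and PBK and AURKB by -0.47 (SE 0.19), and in both cases the differences in the 2 groups did not overlap. From AURKB down to MELK no neighbours were apart, and PLK4 and MELK differed by -0.012 (SE 0.05). The next step, from MELK to PLK2, was -1.82 (SE 0.21).

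The arrays of a group deviated from each other in a shared way across several of these genes. AURKA, AURKB, TPX2, PLK1, NEK2 and PBK had their highest Ecd siRNA signal on replicate 2, which lay 0.08 to 0.41 above the group mean on the log2 scale. The same 6 genes also had their highest control signal on replicate 2, by 0.09 to 0.25. PLK4 and MELK instead had their highest Ecd siRNA signal on replicate 1 (0.24 and 0.20) and their lowest on replicate 3 (-0.27 and -0.29). PLK2 moved the other way on Ecd siRNA replicate 2 (-0.15). This division of the genes was seen in the values and is given as a description.

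**Figure D4:**
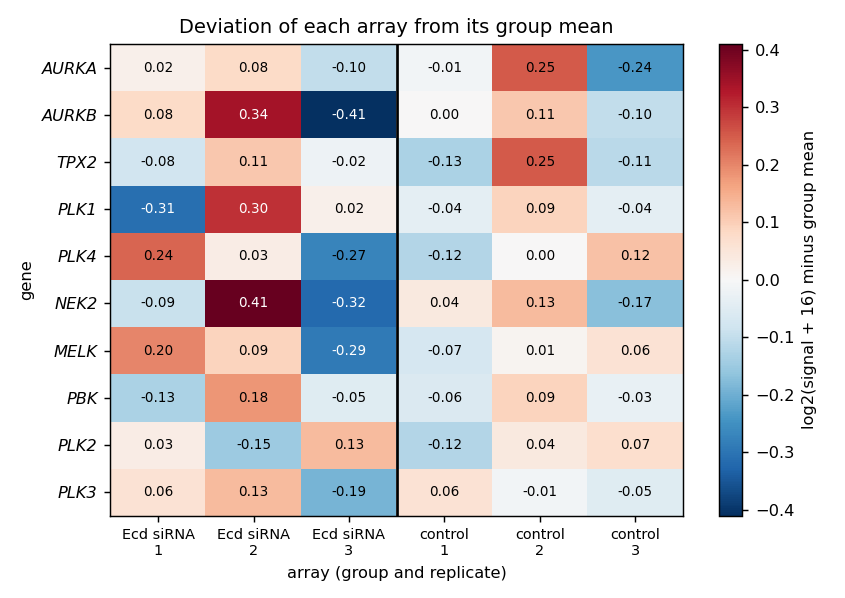
Deviation of each array from the mean of its group, in log2(signal + 16), for the 10 genes, with Ecd siRNA arrays on the left and control siRNA arrays on the right. The darkest cells are NEK2 (0.41) and AURKB (0.34) on Ecd siRNA replicate 2 and AURKB (-0.41) on Ecd siRNA replicate 3, and deviations of the control arrays stay between -0.24 and 0.25.

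Genes with the closest profile over the 6 arrays were sought by Euclidean distance after subtracting each gene's control mean. For PLK1 these were NUF2, a kinetochore gene (distance 0.26, log2 change -2.80), SHCBP1 (0.29, -2.71) and ANLN, a cytokinesis scaffold gene (0.33, -2.79), all of which fell. For PLK2 they were IRF7, PHAX and DNPEP, at distances of 0.07, 0.08 and 0.08 and log2 changes of -0.004, 0.001 and 0.003. For PLK3 they were PWWP2B, APOL6 and LOC100130872, at 0.07, 0.08 and 0.08. The genes near PLK2 and PLK3 did not pass the threshold either, so their likeness is that of genes with little change. Likewise, the distance includes the shift between the groups, so genes near PLK1 had to fall by a like amount.

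Partners of the Aurora kinases mostly fell with them. Of 18 listed, 16 were tested. Of these 12 fell, beside 11.0% of all genes tested, and 1 rose, beside 10.1%. Another 3 stayed above the threshold, and the median log2 change of the list was -1.28. HMMR, a TPX2-binding spindle protein gene, had mean signals of 238.5 ± 17.6 with Ecd siRNA and 2066.1 ± 54.6 with control siRNA (SD, n = 3 each), and the Aurora A substrate gene TACC3 had 65.6 ± 24.7 with Ecd siRNA and 992.2 ± 201.9 with control siRNA. TACC3 and HASPIN, with an Ecd siRNA mean of 65.9, lay under the filter level of 84.6 in that group and were tested through their control signal. BIRC5, the survivin gene of the Aurora B complex, changed by -3.36 and BUB1, whose kinase marks the centromere for that complex, by -2.41. The gene that rose was NEDD9, a focal adhesion scaffold known to activate Aurora A, at 2152.5 ± 48.7 with Ecd siRNA and 1164 ± 70.0 with control siRNA (log2 change 0.88, limma adjusted p = 3.05e-05). INCENP, the scaffold of the Aurora B complex, named after its values were seen, was dim and did not pass (0.19, SE 0.31, adjusted p = 0.744).

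On a list of partners and substrates of PLK1 and PLK4, which also holds the family member PLK5, 16 of 17 genes were tested. Among them 11 fell, beside 11.0% of all genes tested, and 0 rose (0 also at an unadjusted p under 0.05), beside 10.1%. The other 5 missed the threshold. The median was -1.29. CCNB1, which encodes the cyclin that PLK1 phosphorylates at mitotic entry, had a log2 change of -2.69. PRC1, the midzone docking partner of PLK1, was at -2.50, CEP55, a PLK1 substrate gene of abscission, at -3.57 and FBXO5, the EMI1 gene, whose protein PLK1 marks for destruction, at -2.44. Other kinases of mitosis and its checkpoint were more mixed. Of 23 listed, 21 were tested and 10 of those fell, beside 11.0% of all genes tested. The number that rose was 0 (1 at an unadjusted p under 0.05), beside 10.1%, and 11 missed the threshold. The median was -0.27. The spindle checkpoint kinase genes BUB1B (-2.63) and TTK (-2.42), BUB1 again (-2.41) and CDK1 (-2.56) fell most clearly. BUB1, HASPIN and VRK1 stand on this list and on that of the Aurora partners, and PKMYT1 and WEE1 on this list and on that of the Polo partners.

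The transcription factors known to act upstream of these kinase genes held some of the deepest falls. Of 14 tested members of 15 listed, 6 fell, beside 11.0% of all genes tested, and 0 rose (0 also at an unadjusted p under 0.05), beside 10.1%. The other 8 missed the threshold. The median was -0.35. FOXM1 had mean signals of 38.5 ± 18.7 with Ecd siRNA and 911.9 ± 168.8 with control siRNA, and MYBL2, the B-MYB gene, had 99.6 ± 41.7 with Ecd siRNA and 641.6 ± 72.4 with control siRNA (SD, n = 3 each). For FOXM1 the Ecd siRNA mean lay under the filter level, and its probe set is of the _x kind, which can bind other transcripts. The pocket protein gene RBL1 changed by -1.68 and the E2F partner gene TFDP1 by -0.32. Of 19 genes listed for the ubiquitin machinery that removes these kinases, 18 were tested. Among them 5 fell, beside 11.0% of all genes tested, 1 rose, beside 10.1%, and 12 missed the threshold. The median was 0.015. The falls were those of CDC20 (-2.82), which activates the anaphase-promoting complex, of its E2 enzyme genes UBE2C (-2.31) and UBE2S (-1.60), of its subunit gene ANAPC10 (-0.55) and of CDC27 (-0.30), another subunit gene, named after its value was seen. CHFR, a ubiquitin ligase gene of the early mitotic checkpoint, rose (0.28, adjusted p = 0.0346).

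Immediate early, p53-linked and other stress genes, with which PLK2 and PLK3 are induced in other settings, changed less in size than the mitotic kinase genes that fell. Of 24 listed, 22 were tested. Of these 5 rose (8 at an unadjusted p under 0.05), beside 10.1% of all genes tested, and 1 fell, beside 11.0%. The other 16 missed the threshold, and the median of the list was 0.12. The phosphatase gene DUSP1 had mean signals of 4450.9 ± 187.8 with Ecd siRNA and 2991.3 ± 117.2 with control siRNA (log2 change 0.57). The antiproliferative gene BTG1 was at 0.38 and GADD45A, a p53 target, at 0.34. The other rises, named after their values were seen, were those of the AP-1 genes FOS (0.66, adjusted p = 0.0212) and JUN (0.43, adjusted p = 0.0219). The 1 that fell was ATF3 (-0.47, adjusted p = 0.0158).

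**Figure D5:**
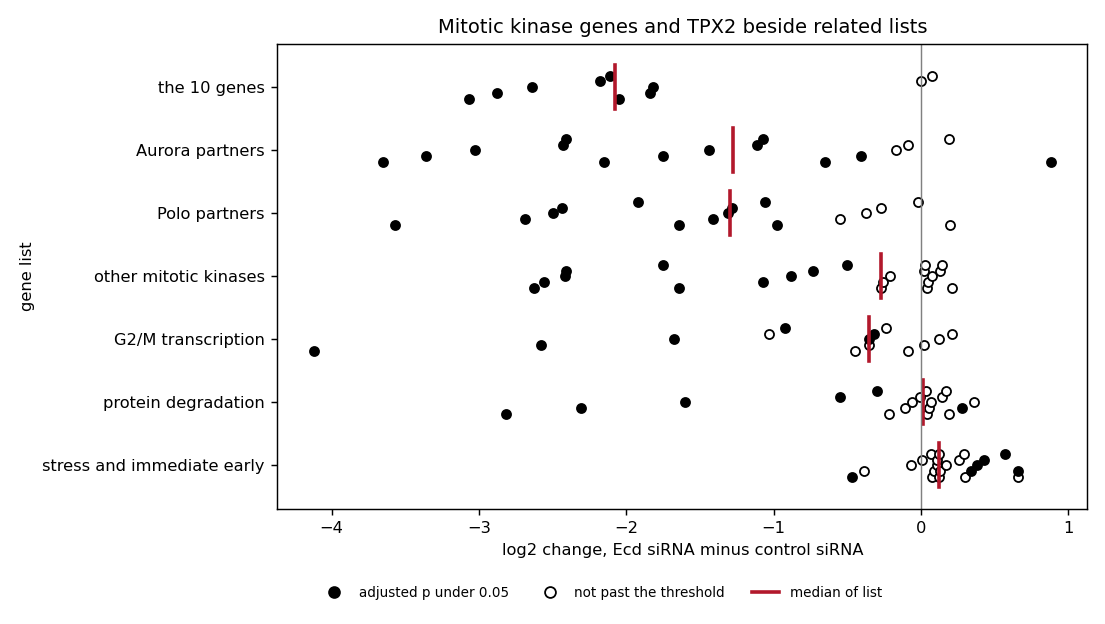
Log2 change (Ecd siRNA minus control siRNA) of the 10 genes and of the tested members of 6 related lists, 1 point per gene, filled where the adjusted p was under 0.05, with the median of each list as a red bar. The medians run from -2.08 for the 10 genes to 0.12 for the stress and immediate early genes, beside 0.008 for all genes tested.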

How the data were processed

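RNA from 6 cultures was measured on Affymetrix arrays, 1 per culture. Each deposited value is a linear signal intensity of 1 probe set, computed by the authors with MAS5 per the submitters' processing notes. Neither its version nor detection calls are in the sources used here. The trimmed mean was 499.94 on every array, which would hide any change common to all transcripts. Probe sets were named by the GEO platform annotation, and of those with 1 symbol (41091), 41037 were found in the RefSeq gene table by gene identifier.

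Signals were converted to log2(signal + 16). A gene was read by its brightest probe set (highest mean), and testing was limited to probe sets in the upper 60% by mean, a signal of 84.6. limma 3.58.1 in R 4.3.3 (lmFit, then eBayes with an intensity trend) compared the groups without covariates over 14603 genes, and separately over 27009 probe sets, with Benjamini-Hochberg adjustment and a threshold of 0.05. The fit across genes was tested on simulated data. Exact permutation tests used SciPy 1.17.1. Fold changes on this scale understate changes of dim transcripts, and the number of arrays limits the precision. P-values reflect only how these cultures vary.

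The members and lists were chosen with earlier results of these data known. The text names the members, ECD, up to 4 called genes per list, by smallest adjusted p (or the 2 with the smallest p where fewer than 2 were called), lineage markers in the check of the cell type, members that moved against their list, and the 3 genes nearest in profile to PLK1, PLK2 and PLK3, with exceptions marked. The list of leukocyte and endothelial markers had 3 of 11 genes tested, with 0 rises (1 at an unadjusted p under 0.05) and 0 falls. It was led by CLDN5 (0.60, adjusted p = 0.152) and PECAM1 (-0.20, adjusted p = 0.366). That of mammary epithelial markers had 8 of 12 tested, with 3 rises (CDH3 0.38, CDH1 0.25 and ITGB4 0.29) and 0 falls (0 also at an unadjusted p under 0.05). Among all genes tested, 10.1% rose and 11.0% fell. Of the fibroblast markers, LOX (1.38), FAP (1.03), MMP2 (0.78) and COL6A1 (0.91) had the smallest adjusted p. Alternatives, tried singly, were a block for the replicate number, leaving out single arrays, array weights, eBayes with no trend, pseudocounts of 1 and 64, scaling by quantiles or to a common median, dropping the filter or raising it to the upper 40%, and other choices of probe set.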

Additional observations from a re-analysis of the deposited data

How the results depend on the processing

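Under the alternatives, 8 of the 10 genes fell in every setting but 1. With probe sets without _s or _x preferred it was 7, because AURKA is then read by its dimmest probe set (-0.62, adjusted p = 0.273). TPX2, which has only an _s probe set, was still read by that one in this setting. No member was higher in any setting run. Of the probe sets, 12 fell in each setting except under the upper 40% filter, where it was 10 because fewer were tested. PLK2 changed sign around 0, at 0.01 with array weights and between -0.07 and 0.07 on leaving out each array in turn, above 0 without Ecd siRNA replicate 2 (0.07), control replicate 2 (0.02) or control replicate 3 (0.03), always with an adjusted p of 0.639 or more, and its probe set did likewise. PLK3 lay between 0.01 and 0.21. The fall of PLK1 ranged from -3.03 to -2.51 and that of NEK2 from -3.27 to -2.64, the smaller sizes coming with a pseudocount of 64 for PLK1 and with the mean of probe sets for NEK2. The 4 Polo-like kinase differences kept their sign, from -3.10 to -2.50 for PLK1 minus PLK2 and from -2.17 to -1.68 for PLK4 minus PLK3. The replicate numbers were not shown to pair the arrays, and the values leave this open. Correlations of deviations were -0.00926, 0.07887 and 0.15152 for equal numbers and -0.13352 to 0.05665 for unequal ones. Not every array was closest to its own number. With the replicate block 8 genes and 12 probe sets fell. Scaling by the authors limits what can be said of changes common to all transcripts.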
